A study of Mus musculus with 816 samples.

Results

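Cells that take up fatty acids switch on a small group of genes that store, export, transport or burn them, and 10 such genes were followed here: Plin2, Angptl4, Cpt1a, Pdk4, Cd36, Fabp4, Fabp5, Hilpda, Pparg and Ppard. They were taken by name, with earlier results of these data known. All 10 are present among the 45581 genes listed for microglial cultures and among the 29858 genes listed for microglia from mice. The cultures were primary neonatal mouse microglia of a commercial supplier, the immune cells of the brain, kept on poly-lysine in a microglia medium and given a stimulus with fresh medium 4 days after plating. Linoleic acid (LiA), palmitic acid (PA) and oleic acid (OA) were each given at 150 uM, high density lipoprotein (HDL) at 2 ug/ul, interleukin 4 (IL4) and interleukin 13 (IL13) at 0.00005 ug/ul and granulocyte-macrophage colony-stimulating factor (GMCSF) at 0.000005 ug/ul. At 24 h there were 9 LiA, 6 PA, 8 OA, 8 HDL, 11 IL4, 9 IL13 and 8 GMCSF cultures against 40 untreated ones. At 72 h there were 8 LiA, 7 PA, 7 OA, 7 HDL, 3 IL4, 6 IL13 and 7 GMCSF cultures against 25 untreated ones. Lipopolysaccharide (LPS), a bacterial cell wall component, was given at a high dose of 0.0001 ug/ul (LPS_hi, 18 cultures at 24 h) or a low dose of 0.00001 ug/ul (LPS_lo, 11 cultures at 72 h). IL4, IL13 or the mixture IL4 + IL10 + IL13 was added to LPS_lo in 5 cultures each, and the mixture alone was given to 6 cultures for 72 h. The mice were C57BL/6 animals from whose brains microglia were isolated with CD11b magnetic beads. They comprised 4 females injected with LPS at 2 mg/kg and 4 with PBS, taken 4 h later at 2 months of age, and an aging series, labelled naive, of 11 males of 2 months and 13 males of 22 months. The column names call 4 mice of each age vehicle mice, as they do all LPS and PBS mice, without saying of what, and those 8 mice of the aging series formed library batch 1.

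The peroxisome proliferator-activated receptors (PPARs) are nuclear receptors that bind fatty acids and their derivatives and, as partners of a retinoid X receptor, switch on genes of lipid uptake, storage and oxidation. Pparg encodes the receptor of fat cells and of macrophages exposed to IL4, and Ppard encodes a receptor present in most tissues. Among their targets, Plin2 coats lipid droplets, Angptl4 is a secreted inhibitor of lipoprotein lipase, Hilpda inhibits the lipase of lipid droplets, Cpt1a carries fatty acids into mitochondria and Pdk4 restrains glucose oxidation. Cd36 is a receptor for long-chain fatty acids and oxidized lipoproteins, and Fabp4 and Fabp5 bind fatty acids in the cytosol. Hilpda, Angptl4 and Plin2 are also known to respond to low oxygen, and macrophages load their droplets when given fatty acids or lipoproteins.

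Values are CPM, counts-per-million, a gene's share of the reads mapped in a sample, and differences are differences of means of log2(CPM + 1), a scale on which the change of genes with low values is understated. A gene was called where its limma test gave p under 0.05 after Benjamini-Hochberg adjustment over all genes tested. The fit held the cultures of a time, at 24 h without the combinations with LPS. All comparisons of a time share the same untreated cultures. The 219 cultures compared held between 1003000 and 30580000 reads, with a median of 5253000, and the 32 mice between 2362000 and 7780000. Nothing in the sources says that the cultures of a group came from separate animals, so the p-values measure the spread between wells. In these bulk samples fewer cells of a type and less RNA per cell cannot be told apart. Of 10 microglial markers, 9 had a mean of 1 CPM or more in untreated cultures at 24 h and Sall1 had 0.969 CPM; Tmem119 had a mean of 19.3 CPM there against 4692 in PBS mice. All 5 adipocyte markers (Adipoq, Lep, Retn, Cfd, Plin1) had means under 1 CPM in untreated cultures and in every lipid group. The vehicle of the fatty acids is not described in the sources used here.

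Culture plate bore on several of the genes. Untreated cultures at 24 h came from 6 plates, and Hilpda had plate means from 12.9 to 102.9 CPM there, whereas Plin2 ranged only from 1046 to 2156 CPM. At 72 h, 10 of the 25 untreated cultures were on plate 6, which held none of the lipids or cytokines described, and the plate means of Fabp4 ran from 3.20 to 33.3 CPM. A model with plate as a term and a comparison against untreated cultures of the same plates were therefore fitted too, and their values are given wherever a call changed.

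Promoter sequences are shown for the 4 genes on which the lipid results turn and which RefSeq's promoter table covers, because PPARs act through a repeat of AGGTCA. A PPAR element is a DR1, AGGTCANAGGTCA, searched on both strands with up to 2 mismatches; AGGTCA alone is its single repeat, and ACGTG is the core bound by hypoxia-inducible factors. Each sequence runs 5′ to 3′ on the strand of its gene, from 250 bases before to 50 after the start site in RefSeq's GRCm38.p6 annotation. Capitals mark the DR1-like match in Plin2 (225 bases before the start) and Cd36 (63 before), the single repeat in Cpt1a (94 before) and the hypoxia core in Hilpda (43 before).
Plin2, chr4:86670010-86670309, minus strand: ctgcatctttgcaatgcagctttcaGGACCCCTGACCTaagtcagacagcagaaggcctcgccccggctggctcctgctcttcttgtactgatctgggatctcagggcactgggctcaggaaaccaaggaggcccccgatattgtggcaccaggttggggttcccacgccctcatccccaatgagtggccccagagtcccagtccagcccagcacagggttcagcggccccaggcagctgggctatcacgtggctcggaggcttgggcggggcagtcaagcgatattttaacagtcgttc
Cd36, chr5:17835847-17836146, minus strand: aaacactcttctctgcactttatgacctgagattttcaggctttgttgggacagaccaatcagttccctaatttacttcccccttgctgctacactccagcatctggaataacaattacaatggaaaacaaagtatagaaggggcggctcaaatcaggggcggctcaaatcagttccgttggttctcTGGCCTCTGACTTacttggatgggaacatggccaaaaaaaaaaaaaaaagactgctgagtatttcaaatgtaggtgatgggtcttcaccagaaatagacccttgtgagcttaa
Cpt1a, chr19:3323051-3323350, plus strand: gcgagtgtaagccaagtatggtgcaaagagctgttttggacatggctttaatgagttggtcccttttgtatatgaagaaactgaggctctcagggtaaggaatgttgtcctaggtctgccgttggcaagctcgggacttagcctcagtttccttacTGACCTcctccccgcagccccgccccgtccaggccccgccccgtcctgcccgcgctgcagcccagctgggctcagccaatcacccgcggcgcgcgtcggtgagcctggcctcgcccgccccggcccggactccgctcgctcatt
Hilpda, second start site, chr6:29272376-29272675, plus strand: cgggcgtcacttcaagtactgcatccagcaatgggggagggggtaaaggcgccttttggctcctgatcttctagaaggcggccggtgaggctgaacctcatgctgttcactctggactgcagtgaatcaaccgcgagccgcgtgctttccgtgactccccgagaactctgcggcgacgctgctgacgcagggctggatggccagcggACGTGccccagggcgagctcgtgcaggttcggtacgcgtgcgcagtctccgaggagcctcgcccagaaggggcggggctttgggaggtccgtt

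A DR1 with up to 2 mismatches was present in 3.86% of 32851 promoters of this length, one with up to 1 mismatch in 0.554% and an exact one in 0.0396%. The single repeat occurred in 16.3% and the hypoxia core in 19.6%. In Plin2 the single repeat, 218 bases before the start, lies within the DR1-like match, and the hypoxia core occurs on both strands at 4 and 3 bases before the start. Cd36 also held a single repeat 228 bases before its start and, 20 bases into the transcript, a match to TTC and GAA separated by 4 bases, the element of STAT6 that 6.95% of promoters hold. Of the other genes in the table, 2 of the 3 Pparg promoters held a single repeat (28 and 9 bases before the start), Ppard held the hypoxia core 213 bases before its start, the first Hilpda promoter and that of Pdk4 held none of the 4 motifs, and no Pparg promoter held the STAT6 element. Angptl4, Fabp4 and Fabp5 are named only. On GRCm38, Plin2 spans chromosome 4 from 86648386 to 86670060, Angptl4 chromosome 17 from 33773750 to 33781830, Hilpda chromosome 6 from 29272488 to 29275446, Cd36 chromosome 5 from 17781690 to 17888801 and Cpt1a chromosome 19 from 3322334 to 3385733. Fabp5 (10012548 to 10016607) and Fabp4 (10204088 to 10208576) both lie on chromosome 3. Pparg lies on chromosome 6 from 115360951 to 115490399, Pdk4 on the same chromosome from 5483351 to 5496309, and Ppard on chromosome 17 from 28232700 to 28301474.

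The first question was what fatty acids and HDL do to these genes. Plin2, the droplet coat, rose with all 4 lipid stimuli at both times. Its 40 untreated cultures at 24 h had between 664 and 2440 CPM, with a median of 1341. LiA cultures had 2037 to 3127 CPM (median 2313), and 4 of 9 exceeded every untreated culture. PA cultures had 2228 to 4996 CPM (median 2991), and 3 of 6 did so. OA cultures had 1512 to 3077 CPM (median 2326), with 3 of 8 above the untreated range, and HDL cultures 2388 to 4306 CPM (median 2848), with 7 of 8 above it. The groups thus overlapped, yet every LiA, PA, OA and HDL culture lay above the untreated median. On the log2 scale the difference was 0.84 ± 0.13 (SE) for LiA (adjusted p = 1.79e-05), 1.16 ± 0.16 for PA (3.86e-08), 0.71 ± 0.14 for OA (0.00586) and 1.11 ± 0.14 for HDL (1.13e-10). By p-value Plin2 ranked 1 of 14208 genes for LiA and for PA, 2 for OA and 5 for HDL.

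At 72 h the same gene stood further apart. Untreated cultures had 1149 to 3806 CPM of Plin2 (median 1549), LiA cultures 3582 to 4506 (median 4288), PA cultures 3041 to 4257 (median 3491), OA cultures 3661 to 5410 (median 5059) and HDL cultures 5410 to 7102 (median 5716). Above the highest untreated culture lay 6 of 8 LiA, 2 of 7 PA, 6 of 7 OA and 7 of 7 HDL cultures. The log2 difference was 1.25 ± 0.15 for LiA (adjusted p = 3.49e-11), 1.03 ± 0.16 for PA (1.54e-06), 1.49 ± 0.16 for OA (1.63e-14) and 1.80 ± 0.16 for HDL (3.52e-21), a 3.49-fold rise. Among 15464 genes tested Plin2 ranked 1 for LiA, OA and HDL and 2 for PA. Over the 97 culture conditions with at least 3 cultures, the 4 highest means of Plin2 were those of HDL, OA, LiA and PA at 72 h, followed by PA at 24 h. Plin2 was higher than in untreated cultures of the same plate on every plate, by 0.33 to 1.98 for fatty acids at 24 h and by 1.59 to 1.91 for HDL at 72 h.

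Angptl4, the secreted lipase inhibitor, moved by more on the log2 scale from a low level. Untreated cultures at 24 h had 0 to 12.1 CPM (median 4.77), LiA cultures 7.81 to 17.2 (median 12.8), PA cultures 8.56 to 30.1 (median 21.1), OA cultures 4.69 to 34.7 (median 10.8) and HDL cultures 22.5 to 39.9 (median 37). All 8 HDL cultures exceeded every untreated one, against 5 of 9 LiA and 4 of 6 PA cultures. The difference was 2.79 ± 0.35 for HDL (adjusted p = 4.83e-11), 1.94 ± 0.39 for PA (0.00130) and 1.45 ± 0.33 for LiA (0.0157). OA gave 1.26 ± 0.35, which did not pass (adjusted p = 0.113) but did with plate in the model (1.68, 0.00212). At 72 h untreated cultures had 0 to 27.6 CPM (median 5.63) and HDL cultures 39.2 to 75.8 (median 61.8), which did not overlap. LiA cultures had 18.9 to 31.7 CPM (median 26.2), PA cultures 9.46 to 42.4 (median 22.9) and OA cultures 6.59 to 34.3 (median 28.3). Angptl4 rose by 3.28 ± 0.42 with HDL (9.69-fold, adjusted p = 6.50e-10), by 2.17 ± 0.40 with LiA (3.74e-04), by 1.92 ± 0.42 with PA (0.00187) and by 1.99 ± 0.42 with OA (0.00249). With 0.1 added to CPM in place of 1, all 5 calls of Angptl4 under fatty acids made without plate were lost. Those under HDL were kept. HDL at 72 and 24 h gave the 2 highest condition means of the panel, and the next 4 were LiA, OA and PA at 72 h and PA at 24 h.

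**Figure D1:**
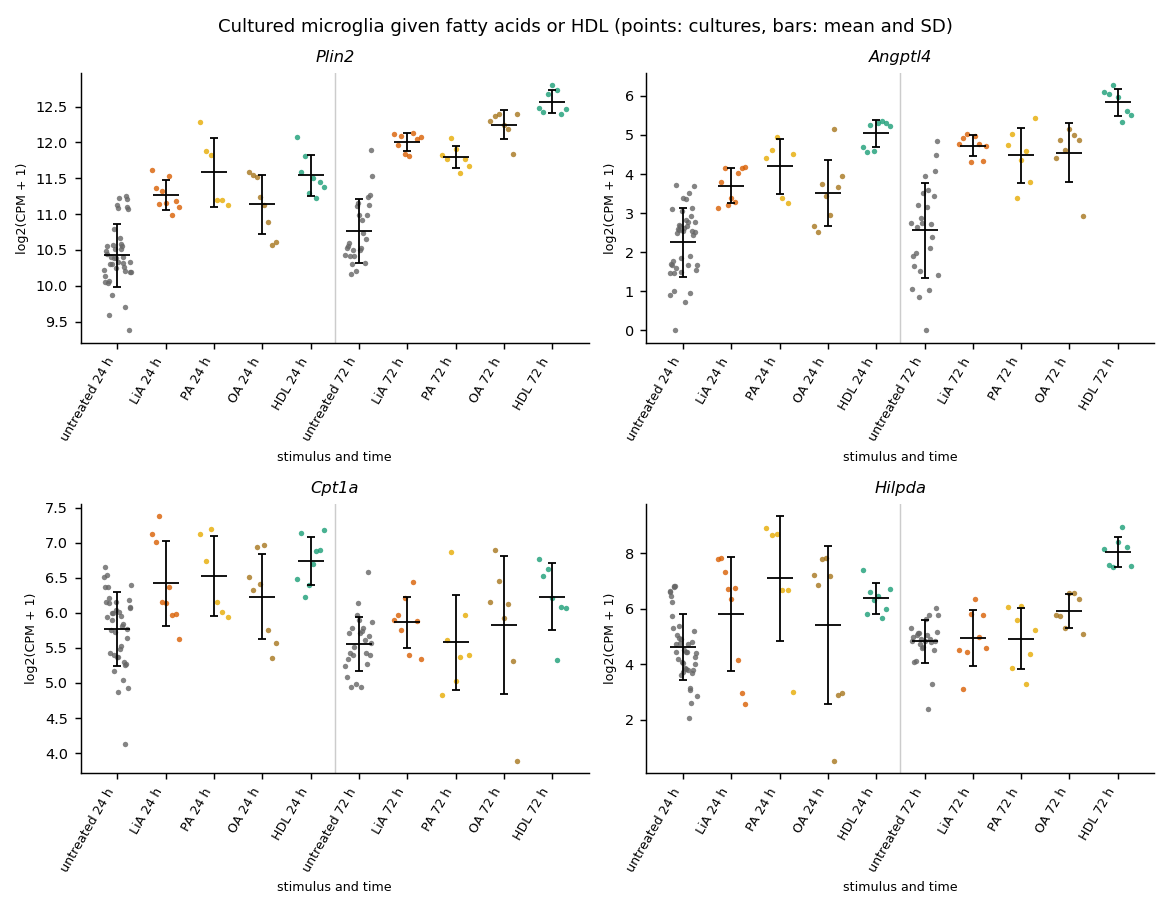
Plin2, Angptl4, Cpt1a and Hilpda in untreated cultures and under LiA, PA, OA and HDL at 24 and 72 h, as log2(CPM + 1). Each point is a culture and bars are the mean ± SD. The 7 HDL cultures at 72 h lie above all 25 untreated ones for Plin2, Angptl4 and Hilpda, whereas Hilpda under fatty acids at 24 h spreads over the untreated range.

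Hilpda, the inhibitor of the droplet lipase, rose most clearly with HDL at 72 h. Untreated cultures at that time had 4.22 to 63.9 CPM (median 29.2) and HDL cultures 178.9 to 490.0 (median 284). The groups did not overlap, and the difference was 3.22 ± 0.48 (9.32-fold, adjusted p = 4.56e-07). HDL at 24 h gave 50.5 to 169.7 CPM (median 83.2) against 3.22 to 113.6 (median 20.9) untreated, a difference of 1.75 ± 0.58 that did not pass (adjusted p = 0.0894) but did against untreated cultures of the same plates (2.71, 0.00946) and with plate in the model (2.63, 3.97e-09). PA at 24 h gave 7.04 to 479.9 CPM (median 252), a rise of 2.48 ± 0.65 (adjusted p = 0.0275) that was lost with plate in the model (1.35, 0.107) and against the same plates (2.13, 0.348). The split ran along plates. The PA mean was 430.4 CPM against 102.9 untreated on plate 1 and 101.3 against 54.9 on plate 2, but the single PA culture of plate 3 had 7.04 CPM against 12.9. LiA and OA means were also below the untreated mean on plate 3, at 9.51 and 4.58 CPM. On that plate the HDL mean was 100.1 CPM, so HDL and the fatty acids differed there in direction from untreated cultures, which was not tested. Neither LiA (1.21, adjusted p = 0.436) nor OA (0.79, 0.679) passed at 24 h, and OA at 72 h passed only with plate (1.61, 0.0430).

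Cpt1a, the mitochondrial carrier enzyme, passed for HDL at 24 h alone among the lipid comparisons. HDL cultures had 74.2 to 143.8 CPM (median 110.0) against 16.5 to 99.9 (median 57.5) in untreated cultures, with 5 of 8 above every untreated culture. The rise was 0.97 ± 0.22 (adjusted p = 0.00179). LiA gave 0.65 ± 0.21 (adjusted p = 0.161), PA 0.76 ± 0.24 (0.107) and OA 0.46 ± 0.22 (0.448) at 24 h, and HDL at 72 h gave 0.67 ± 0.32 (0.504). The 3 highest condition means of Cpt1a in the panel were HDL, PA and LiA at 24 h.

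Cd36, the fatty acid receptor, rose with LiA at 24 h. LiA cultures had 1073 to 1526 CPM (median 1239), against 205 to 1232 (median 680) untreated, and 5 of 9 exceeded the untreated range. The difference was 1.04 ± 0.20 (adjusted p = 0.00208). It was 0.79 with plate in the model (0.00163), and 0.82 and not called against untreated cultures of the same plates (0.526). HDL at 24 h gave 0.54 without plate (adjusted p = 0.199), 1.24 with it (4.46e-10) and 0.98 against the same plates (0.00946). At 72 h HDL cultures had the highest mean of the panel, 2410 ± 617 CPM (SD, n = 7), but a difference of 0.84 ± 0.25 that did not pass (0.0915). The HDL mean was 2235 CPM against 947 untreated on plate 5 and 2541 against 2823 on plate 9. PA at 72 h gave -0.52 (adjusted p = 0.350), and -0.97 against untreated cultures of the same plates (0.0279).

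**Figure D2:**
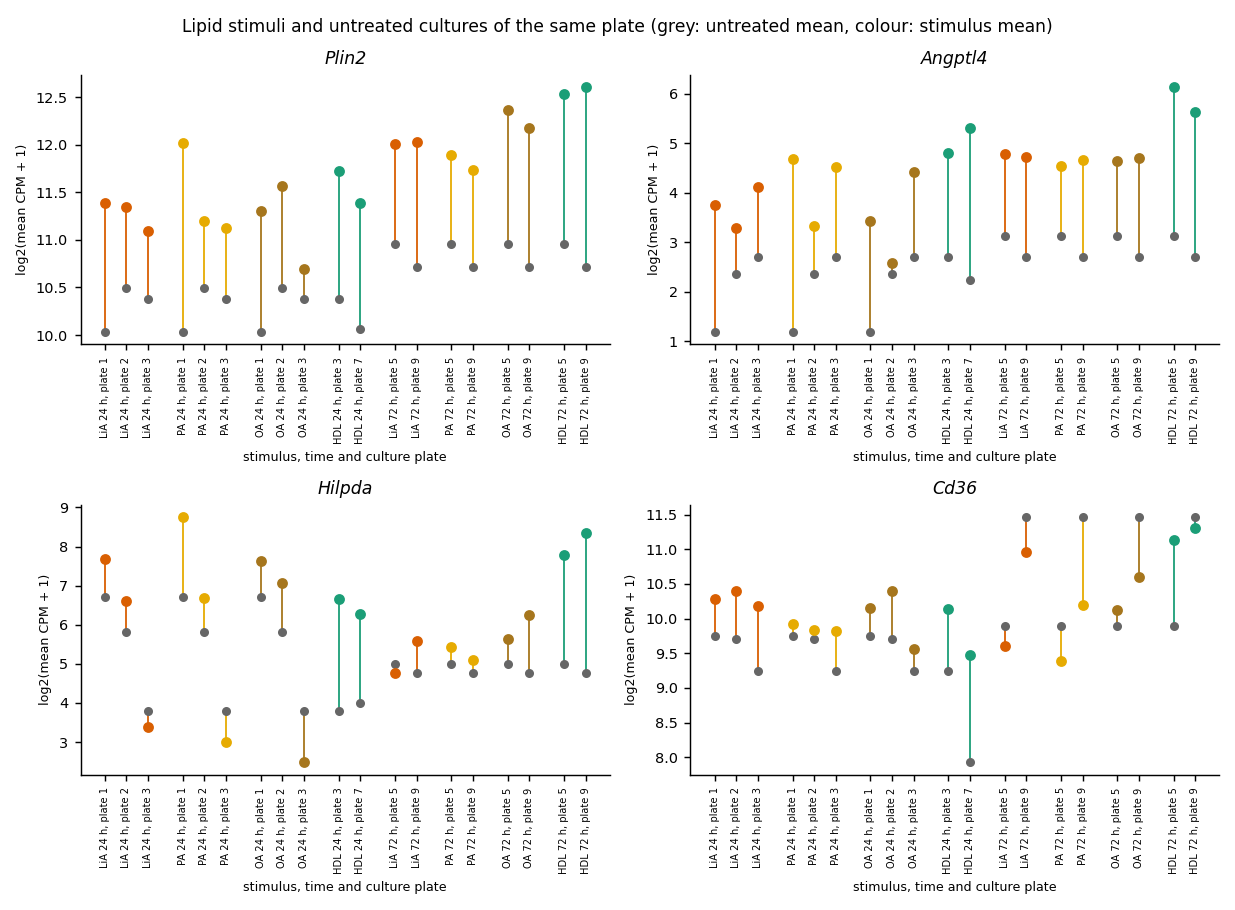
Plate means of Plin2, Angptl4, Hilpda and Cd36 as log2(mean CPM + 1), untreated in grey and lipid stimulus in colour, joined within a plate. Plin2 and Angptl4 lie above the untreated mean on every plate, while Hilpda under the fatty acids at 24 h and Cd36 at 72 h point both ways.

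Fabp4, Fabp5, Pparg and Ppard did not pass for any of the 8 lipid comparisons. Pparg under LiA at 24 h differed by 0.83 (adjusted p = 0.355) and Fabp4 by 1.09 (0.205). Pdk4, the brake on glucose oxidation, was at 0 in 27 of 40 untreated cultures at 24 h and never passed the filter on low values. Its highest condition mean was OA at 72 h, with 2.84 ± 4.16 CPM (SD, n = 7) and 2 cultures at 0. Untreated cultures at 72 h had 0 to 1.33 CPM (median 0) and OA cultures 0 to 11.5 (median 1.63), with 4 of 7 above every untreated culture. Tested without the filter, Pdk4 was called for OA at 72 h (1.07 ± 0.21, adjusted p = 2.17e-04, where 0.946% of 31510 genes were called) and was higher on both plates. HDL at 72 h gave 0.75 ± 0.21 (0.0514) and PA at 24 h 0.55 ± 0.16 (0.0557). These values rest on few reads.

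Of the 9 genes that passed the filter at 24 h, 3 were called for LiA (0.31% of 14208 genes were called), 3 for PA (0.978%), 1 for OA (0.155%) and 3 for HDL (2.03%). All of these rose. Of the 9 at 72 h, 2 were called for LiA (0.517% of 15464 genes), 2 for PA (1.67%), 2 for OA (0.369%) and 3 for HDL (0.55%), and again all rose. The median difference over the 9 genes was 0.84 for LiA, 0.72 for PA, 0.47 for OA and 0.54 for HDL at 24 h, where the medians over all genes were 0.04, 0.11, -0.01 and 0.01. Microglial markers moved too: 3 of 10 were lower with PA, 1 with LiA, 1 with OA and 2 with HDL at 24 h, while at 72 h 2 were higher with PA and 1 was lower with HDL. Of the endothelial markers, HDL lowered 1 of 2 tested at 24 h and raised 1 of 3 at 72 h. The sum of 5 endothelial markers had a median of 33.3 CPM with HDL against 52.8 untreated at 24 h, and 42.3 against 47.1 at 72 h. Cldn5 and Cdh5 had means under 1 CPM in all of these groups. The part of the microglial and endothelial markers in the results was not tested.

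The fatty acids were compared with each other at the same dose and time. PA is saturated, OA has a single double bond and LiA has a pair of them. Over the 6 pairwise comparisons none of the 9 genes was called by limma, and adjusted over the 6 comparisons every p was 1. The share of genes called was 0.00704% for LiA against PA, 0% for LiA against OA and 0.0352% for OA against PA at 24 h, and 0.0388%, 0% and 0.0323% at 72 h. Without adjustment, 2 of the 9 had p under 0.05 for OA against PA at 24 h (1028 genes did), 1 for OA against PA at 72 h (820) and none in the other 4 pairs (329 to 853 genes). These genes were Plin2 at both times and Hilpda at 24 h. Plin2 was lower with OA than with PA at 24 h, by -0.45 (95% interval -0.83 to -0.06), and higher at 72 h, by 0.45 (0.07 to 0.84). Hilpda differed by -1.69 (-3.27 to -0.10) between OA and PA at 24 h. For LiA against PA, Plin2 differed by -0.32 (-0.70 to 0.06) at 24 h and 0.22 (-0.16 to 0.59) at 72 h, and Angptl4 by -0.49 (-1.42 to 0.43) and 0.25 (-0.74 to 1.24). For LiA against OA the values were 0.13 (-0.22 to 0.48) and -0.24 (-0.61 to 0.13) for Plin2, and 0.19 (-0.67 to 1.04) and 0.18 (-0.81 to 1.17) for Angptl4. OA against PA gave -0.68 (-1.63 to 0.27) and 0.07 (-0.95 to 1.10) for Angptl4. The intervals of Angptl4 reach 1 log2 unit or more, so they do not show that the fatty acids acted alike. HDL was given by mass and the fatty acids by molarity, so they were not compared.

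The second question was what the cytokines linked to Pparg do. Pparg itself was highest of all conditions under IL4 at 72 h, where the 3 cultures had 114.7, 124.3 and 109.8 CPM against 0 to 76.4 (median 28.1) untreated. The difference was 2.74 ± 0.95 and did not pass (adjusted p = 0.121, and 0.0799 with plate). All 3 cultures were on plate 5. At 24 h IL4 cultures had 24.2 to 62.0 CPM (median 42.5) against 0.736 to 38.3 (median 17.6), and 7 of 11 exceeded every untreated culture. Pparg rose by 1.34 ± 0.32 (adjusted p = 0.00147), a call lost with plate in the model (0.84, 0.0756) and against untreated cultures of the same plates (1.14, 0.0511). It was higher on 3 of 3 plates. IL13 gave 0.63 at 24 h (adjusted p = 0.342) and 1.37 at 72 h (0.427), with cultures of 19.1 to 131.6 CPM at the later time. GMCSF cultures at 72 h had 33 to 153.5 CPM (median 76.0), all above the untreated median. Their difference of 1.99 ± 0.67 did not pass (adjusted p = 0.0747) but did with plate in the model (2.33, 0.0111) and against the same plates (2.49, 0.0291).

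Fabp4, a classical Pparg target, was called at 72 h. IL4 cultures had 104.6, 74.8 and 58.3 CPM, all above the untreated range of 0 to 44.0 CPM (median 11.1), a rise of 2.79 ± 0.74 (6.94-fold, adjusted p = 0.0128). Leaving out any 1 of the 3 cultures kept the direction (2.58 to 2.99) and ended the call. GMCSF cultures had 19.1 to 76.9 CPM (median 58.4), a rise of 2.17 ± 0.52 (adjusted p = 0.00239), with 5 of 7 above the untreated range. The mixture IL4 + IL10 + IL13 gave 20.2 to 111.7 CPM and a rise of 1.99 ± 0.55 (adjusted p = 0.0110), lost with library pool in the model (1.48). IL13 alone gave 0.83 (0.584). On plate 5 the untreated mean was 3.20 CPM, against 79.2 for IL4 and 47.9 for GMCSF. At 24 h no cytokine moved Fabp4 past the threshold.

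Fabp5, the epidermal-type binding protein, fell with IL4 and IL13 at 24 h and rose with GMCSF at 72 h. At 24 h IL4 cultures had 119 to 332 CPM (median 195) and IL13 cultures 119 to 231 (median 201) against 170 to 458 (median 260) untreated. The difference was -0.45 ± 0.14 for IL4 (adjusted p = 0.0264) and -0.56 ± 0.15 for IL13 (0.0174), and all 9 IL13 cultures lay below the untreated median. At 72 h GMCSF cultures had 429 to 1156 CPM (median 754) against 191 to 663 (median 349), a rise of 1.03 ± 0.26 (adjusted p = 0.00689) with 6 of 7 above every untreated culture. GMCSF at 24 h gave 0.42 (0.0800), with a mean of 554 CPM against 258 untreated on plate 8 but 230 against 289 on plate 4.

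Plin2 fell with IL4 and IL13 at 24 h and with GMCSF at 72 h, and Angptl4 with IL13 at 24 h and GMCSF at 72 h. At 24 h IL4 cultures had 762 to 986 CPM of Plin2 (median 913), none above the untreated median, and Plin2 fell by 0.65 on the log2 scale (SE 0.12, adjusted p = 2.27e-05). IL13 lowered it by 0.52 (SE 0.13, adjusted p = 0.00858), which was lost against untreated cultures of the same plates (-0.36, 0.370), and Angptl4 by 1.29 (SE 0.33, 0.00786), lost with plate in the model (-0.84, 0.181) and against the same plates (-1.02, 0.232). GMCSF at 72 h had the widest reach. Plin2 had 428 to 1505 CPM (median 779), 6 of 7 cultures below every untreated one, and fell by 1.15 (SE 0.16, adjusted p = 1.21e-09). Angptl4 had 0 to 1.11 CPM (median 0.202) and differed by -2.20 ± 0.42 (4.16e-05). Cd36 had 216 to 2094 CPM (median 362) and differed by -1.49 ± 0.25 (2.42e-06), and Hilpda had 1.21 to 44.9 CPM (median 8.91) and differed by -1.91 ± 0.48 (0.00524). The Hilpda call was lost with library pool in the model.

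**Figure D3:**
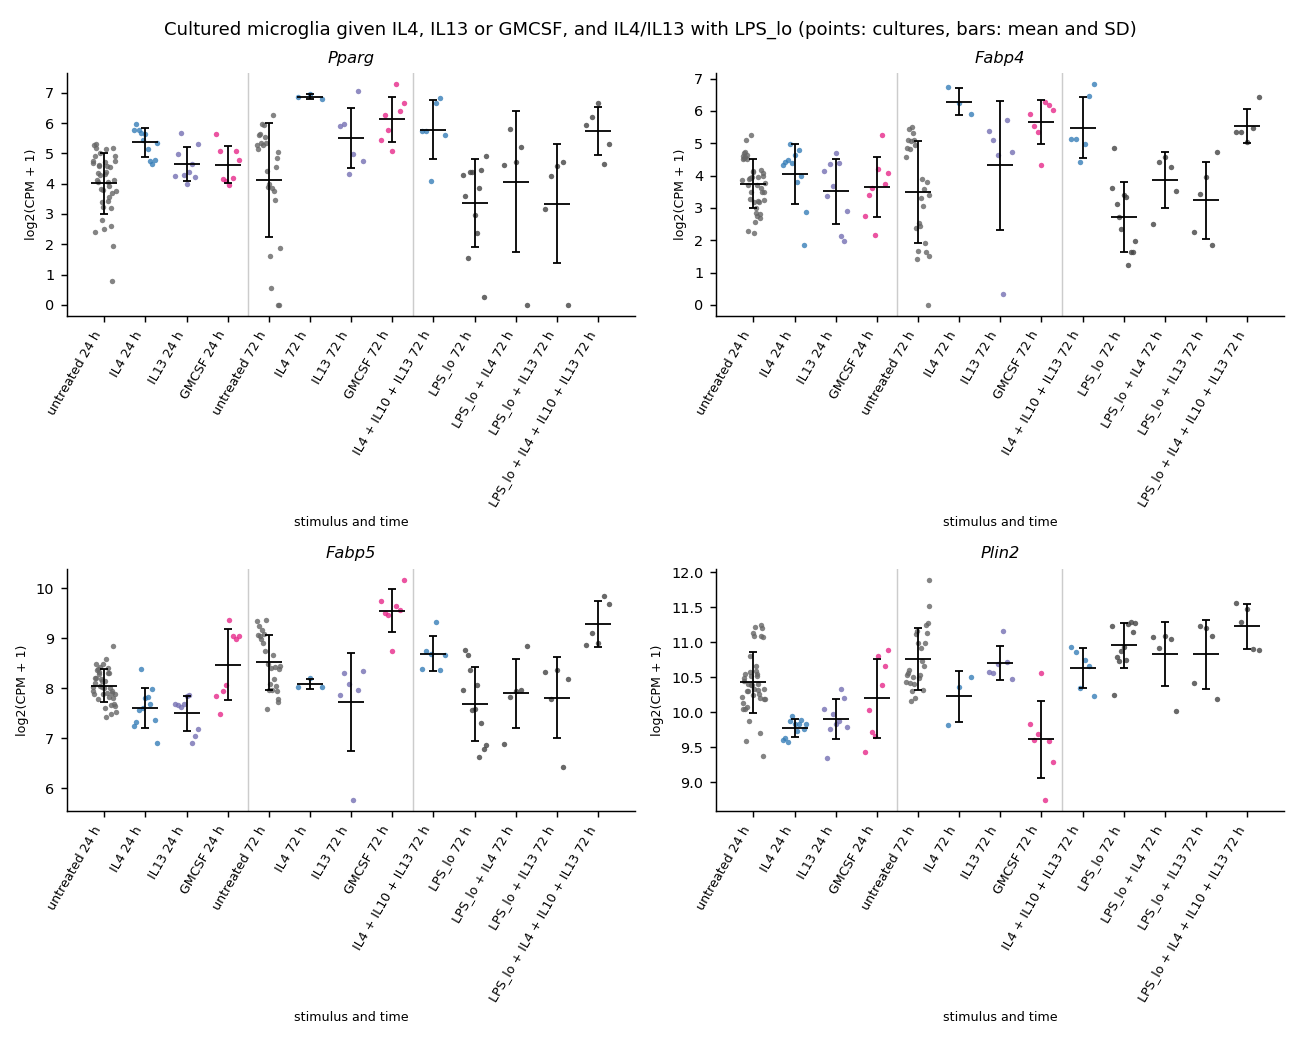
Pparg, Fabp4, Fabp5 and Plin2 as log2(CPM + 1) in each culture under IL4, IL13 and GMCSF at 24 and 72 h, and under IL4 + IL10 + IL13, LPS_lo and its combinations at 72 h, with mean ± SD. The 3 IL4 cultures at 72 h lie above every untreated culture for Pparg and Fabp4, and 6 of 7 GMCSF cultures lie below every untreated culture for Plin2.

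At 24 h, 3 of the 9 genes were called for IL4 (8.94% of genes), with Pparg higher and Plin2 and Fabp5 lower, and 3 for IL13 (3.82%), all lower. None was called for GMCSF (9.44%); 2 had unadjusted p under 0.05 in limma, as did 3299 genes, and with plate in the model Plin2 (-0.49, adjusted p = 9.53e-04) and Angptl4 (-1.28, 0.00224) were called, as they were against the same plates (-0.48, 0.0389 and -1.23, 0.0314). At 72 h the counts were 1 for IL4 (2.2%), 0 for IL13 (2.11%), 6 for GMCSF (3.41%) and 1 for the mixture (5.52%). For IL13 at 72 h, 3 of the 9 and 1868 genes had unadjusted p under 0.05, and Angptl4 was called with plate in the model (-1.56, 0.0316). Cpt1a under the mixture differed by -0.96 (adjusted p = 0.0708) and was called with plate (-1.08, 0.0385). Markers of other cells moved beside these genes. The sum of 4 perivascular macrophage markers had a median of 77.1 CPM untreated at 24 h, against 325 with IL4 and 282 with IL13. At 72 h it was 35.6 CPM untreated, 246 with IL4, 295 with IL13, 228 with GMCSF and 265 with the mixture. The gene called in that list was Mrc1, a mannose receptor. Cd163 and Lyve1 had means under 1 CPM in all of these groups, and F13a1 in those of 72 h. The sum of 5 endothelial markers had a median of 52.8 CPM untreated and 136 with IL4 at 24 h through Flt1, while Cldn5, Cdh5 and Esam had means under 1 CPM in both. The part of these markers in the results was not tested.

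IL4 and IL13 act through a shared receptor chain and were compared at the same dose. None of the 9 genes was called by limma at 24 h (0.0915% of genes) or at 72 h (0.31%). At 24 h none and 300 genes had unadjusted p under 0.05, and at 72 h 1 of the 9 and 919 genes did. That gene was Fabp4, higher with IL4 by 1.97 ± 0.85 at 72 h (adjusted p = 0.680), with all 3 IL4 cultures above all 6 IL13 cultures. Pparg was higher with IL4 by 0.72 at 24 h, where all 11 IL4 cultures exceeded the IL13 median, and by 1.38 at 72 h, and neither passed.

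When the cytokines were added to LPS_lo, the mixture of all 3 moved the binding proteins. Fabp4 had 39.5, 39.5, 32, 43.0 and 85.0 CPM in the 5 cultures against 1.33 to 28 (median 5.61) in 11 LPS_lo cultures, a rise of 2.81 ± 0.65 (adjusted p = 0.00149). This call was lost with 0.1 added to CPM in place of 1. Fabp5 had 467, 553, 482, 925 and 826 CPM against 97.7 to 434 (median 191), a rise of 1.60 ± 0.33 (2.35e-04). All 5 cultures exceeded all LPS_lo cultures for both. The cultures of the mixture came from 2 plates and those of LPS_lo from 3, with 1 plate in common. No comparison within the same plates was fitted for these groups. Cd36 rose by 1.28 ± 0.32 (0.00398), with 4 of 5 above the LPS_lo range. Pparg had 60.6, 71.9, 101.0, 23.9 and 38.6 CPM against 0.212 to 29.3, a difference of 2.38 ± 0.84 that did not pass (adjusted p = 0.103) but did with plate in the model (2.65, 0.0350). The 3 calls stand beside 3.74% of genes called. IL4 alone (1.3%) and IL13 alone (0.0388%) gave no call by limma among the 9; 2 and 1 of them had unadjusted p under 0.05, as did 1318 and 571 genes. The sum of perivascular macrophage markers, Mrc1 among them, had a median of 9.53 CPM with LPS_lo and 240 with the mixture added. This sum is not split by gene here, and its part in the results was not tested.

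High-dose LPS at 24 h lowered 7 of the 9 genes, where 42.4% of all genes were called, and the median over the 9 was -1.02 against -0.22 over all genes. Fabp5 had 27.3 to 169.4 CPM (median 59.3) in 18 cultures, all below the lowest untreated culture, and fell by 1.93 (SE 0.12, adjusted p = 1.06e-42). Pparg fell by 2.57 (SE 0.27, 3.62e-18), Fabp4 by 2.17 (SE 0.29, 5.16e-12), Angptl4 by 1.87 (SE 0.25, 1.42e-11), Plin2 by 1.02 (SE 0.10, 5.38e-19), Cd36 by 0.91 (SE 0.16, 9.20e-08) and Cpt1a by 0.41 (SE 0.16, 0.0258). These genes were lower on 6 of 6 plates, except Cd36, which was lower on 5. Hilpda went its own way, at 0.74 (adjusted p = 0.154), higher on 3 plates and lower on 3. Beside this, 7 of 10 microglial markers were lower and 2 higher, and their part in the result was not tested.

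The effect of each stimulus at 72 h was then compared with that at 24 h. A call was made for Cd36 under PA, whose effect was -1.15 ± 0.35 at 72 h minus 24 h (adjusted p = 0.0338), 1 of 9 genes against 4.03% of 16591 genes. GMCSF gave 3 calls (1.18%): Plin2 -0.92 ± 0.21 (0.00664), Cd36 -1.18 ± 0.33 (0.0361) and Fabp4 2.27 ± 0.64 (0.0394). The Fabp4 call was lost with 0.1 added to CPM in place of 1. The Cd36 call under PA and the Plin2 call under GMCSF were lost with library pool in the model (-0.76 and -0.58). For LiA (0.38%), OA (0.446%), HDL (0.0542%), IL4 (1.25%) and IL13 (0.82%) limma called none of the 9. Unadjusted p was under 0.05 for 2, 2, 2, 2 and 3 of them, and for 1664, 1905, 882, 2121 and 2148 genes. Pdk4, tested without the filter, was called for OA (1.00 ± 0.25, adjusted p = 0.00902, where 1.14% of 34063 genes were called). With plate in the model 4 more were called: Plin2 under OA (0.61, adjusted p = 0.0421), Cd36 under LiA (-0.997, 0.0158) and Fabp4 under IL4 (3.57, 4.34e-05) and IL13 (1.98, 0.0286). The untreated cultures of the 2 times were on different plates.

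Levels ordered over the panel showed which conditions each gene marked. Pparg was highest under IL4 at 72 h (mean 116 ± 7.36 CPM, SD, n = 3), then GMCSF (77.2 ± 41.1, n = 7), the mixture (63.8 CPM) and the mixture with LPS_lo, the last 2 lying within 1 SD of GMCSF. Fabp4 was also highest under IL4 at 72 h (79.2 ± 23.5 CPM). Fabp5 was highest under IL10 at 72 h (1021 CPM) and 24 h (1015 CPM), with SDs of 226 (n = 6) and 232 (n = 9) that exceed the gap between them, and came next under GMCSF at 72 h (777 ± 216). Hilpda was highest with ATP for 4 h, alone (320 CPM) or with LPS_hi (352 CPM), ahead of HDL at 72 h (280 ± 112). Ppard had 2.02 to 18.9 CPM in untreated cultures at 24 h and was called in no culture comparison. Against untreated cultures it differed by -0.37 under LPS_hi at 24 h and by 0.85 under the mixture at 72 h. Its highest mean was ATP at 4 h (17.8 CPM) and its lowest LPS_hi at 4 h (0.900 CPM). No untreated cultures of 4 h were analysed here.

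Over the 97 conditions, Pearson's r of mean log2(CPM + 1) with every one of 15068 genes described which genes were most alike, the conditions sharing plates, lots, medium and depth. The closest to Plin2 was Angptl4 (r = 0.74), followed by Zfp473 (0.72) and Abhd12 (0.72). For Angptl4 it was Acot1 (0.78), an acyl-CoA thioesterase, then Plin2 (0.74) and Epor (0.73). Pparg was closest to Hip1 (0.83), Lgals3 (0.78) and Snx5 (0.78), and Fabp4 to Cd68 (0.81), Mrc1 (0.80) and Gpnmb (0.80). For Fabp5 the first was Gm6166 (0.90), which may share reads with it, so that the values of both are uncertain, then Ctsb (0.84) and Cd63 (0.82). Hilpda was closest to Vegfa (0.72), the vascular growth factor induced by low oxygen, then Dusp5 (0.61) and Fosl2 (0.59). Cpt1a was closest to Gcnt1 (0.76), Gm15513 (0.76) and Ucp2 (0.76), Cd36 to Panx1 (0.71), Rnf128 (0.70) and Serpinb6a (0.69), and Ppard to Btrc (0.59), Synj2 (0.59) and Nckap5l (0.58). Each pair of the genes was also ranked, in the list of its earlier-named gene alone. In these ranks only Angptl4 for Plin2 (rank 1) and Fabp5 for Fabp4 (r = 0.78, rank 8) stood within the nearest 20.

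The other genes of lipid handling were counted by list. Of 20 beta-oxidation genes 18 were tested, and none was called under any of the 8 lipid comparisons. IL4 at 24 h raised 3 (Acadm 1.04, Etfa 0.84, Hadhb 0.57), where 8.94% of all genes were called and 879 of 14208 were higher, and none of the 3 was called with plate in the model. GMCSF at 24 h lowered 2 (Slc25a20 -1.06, Eci2 -0.64), where 9.44% of all genes were called and 902 of 14208 were lower. LPS_hi lowered 11 (Acaa2 -1.93, Hadh -1.30, Decr1 -1.29), where 42.4% of all genes were called and 4324 of 14208 were lower, with a list median of -0.50 against -0.22 over all genes. Of 17 lipid droplet and lipolysis genes, 10 were tested at 24 h and 11 at 72 h. HDL at 24 h raised Pnpla2 (0.94), the droplet lipase that Hilpda inhibits. PA at 72 h lowered Lipa (-0.89), a lysosomal lipase, and Mgll (-1.70), the latter lost with plate, whereas Mgll rose with IL4 (2.63) and GMCSF (1.69) at 72 h. LPS_hi lowered 7 of 10, led by Lipa (-2.35), beside the 42.4% of all genes called.

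Among 12 tested genes of fatty acid uptake and activation, Acot1 rose with HDL at 24 h (2.46) and 72 h (2.78) and with OA at 72 h (2.00). Acsl5, which activates fatty acids, rose at 72 h with LiA (0.96), PA (1.05) and OA (1.19), but also with IL4 (1.31), IL13 (1.14) and GMCSF (1.02). The lipoprotein lipase gene Lpl was lower with HDL at 24 h (-1.63) and higher with GMCSF at 24 h (1.03). Of the PPAR partners and coregulators, 10 tested at 24 h and 11 at 72 h, the coactivator Ppargc1b rose with IL4 (2.52 at 24 h, 3.14 at 72 h) and IL13 (1.67 and 2.33). Its partner list also held Rxra, lower with IL4 and IL13 at 24 h (-0.71 and -0.67), both lost with plate. PA at 72 h lowered the corepressor gene Nrip1 (-2.33), which was lost with plate. Of 8 genes of the liver X receptors and their targets, HDL at 24 h raised Mylip (0.93) and Lpcat3 (0.77). PA at 24 h raised Mylip (1.03), which was lost with plate. The cholesterol exporter Abcg1 rose with PA (1.47), IL4 (1.44), IL13 (1.03) and GMCSF (1.93) at 24 h. Apoe was lower at 24 h with IL4 (-1.67) and IL13 (-1.10), the IL13 value being lost with plate. At 72 h Apoe was lower with IL4 (-2.125), IL13 (-1.119), GMCSF (-1.735) and the mixture (-1.620), all kept with plate. Also kept with plate at 72 h were higher Abcg1 with IL4 (1.99), GMCSF (1.89) and the mixture (2.17). So were lower Abca1 with IL4 (-2.41) and the mixture (-2.28) and lower Mylip with the mixture (-2.67). Of 16 sterol and fatty acid synthesis genes tested at 72 h, 6 rose with GMCSF (Scd2 2.79, Dhcr7 2.35, Fasn 2.17), where 3.41% of all genes were called and 381 of 15464 were higher. LPS_hi lowered 12 of 17 at 24 h, beside the 42.4% called, and LiA at 24 h lowered Srebf1 (-1.14), which was lost with plate. Of 9 hypoxia response genes tested at 24 h, PA raised Vegfa alone (2.24, adjusted p = 0.00130, and 1.90 with plate), OA at 72 h lowered Ero1l (-1.64), and no gene of the list was called for HDL at either time.

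In mice, 5 of the 10 genes passed the filter: Plin2, Fabp5, Ppard, Hilpda and Cpt1a. Angptl4 was at 0 in 4 of 4 LPS mice and at most 0.876 CPM in any mouse, and Pparg, Fabp4, Cd36 and Pdk4 were also low. Microglia of LPS mice had 26.7, 24.0, 28.5 and 27.3 CPM of Plin2 against 17.5, 20.1, 20.6 and 11.7 in PBS mice, with no overlap. The difference was 0.61 ± 0.20 (adjusted p = 0.0406). Ppard had 31.5, 48.0, 31.1 and 20.0 CPM against 19.6, 11.5, 19.8 and 22.2, a difference of 0.78 ± 0.26 (0.0446) with 1 LPS mouse inside the PBS range. These 2 calls stand beside 22.4% of 9012 genes called, and leaving out any 1 mouse left 0 or 1 of them. Hilpda had 3.73 to 6.67 CPM with LPS and 5.49 to 13.6 with PBS (-0.67 ± 0.30, adjusted p = 0.129), and Cpt1a differed by -0.01. Neutrophil markers moved as well, with 3 of 4 tested higher and a summed median over 5 markers of 213 CPM against 86.8, and all 5 had means above 1 CPM in both groups. Their part in the result was not tested.

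With age Fabp5 was called, 1 of 5 genes against 3.24% of 9632 genes. Mice of 22 months had 4.26 to 16.3 CPM (median 8.16) and mice of 2 months 0.565 to 7.48 (median 5.41), and 9 of 13 old mice exceeded every young one. The difference was 1.02 ± 0.28 (adjusted p = 0.0404), and 1.00 with library batch in the model. Plin2 differed by 0.30 (0.614), Hilpda by -0.50 ± 0.22 (0.299), Cpt1a by -0.23 (0.600) and Ppard by -0.15 (0.914). Over the same mice the summed neutrophil markers had a median of 510 CPM at 2 months and 1080 at 22 months, and monocyte markers 45.2 and 90.9, and their part was not tested. Dgat2, which makes triglyceride, was higher with LPS (2.69) and with age (0.95), while no beta-oxidation gene was called with age and Acadm (-0.56) and Hadh (-0.52) were lower with LPS. Mice and cultures were normalized separately, so the LPS differences of Plin2, 0.61 in mice at 4 h and -1.02 in cultures at 24 h, are values side by side and were not tested against each other.

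**Figure D4:**
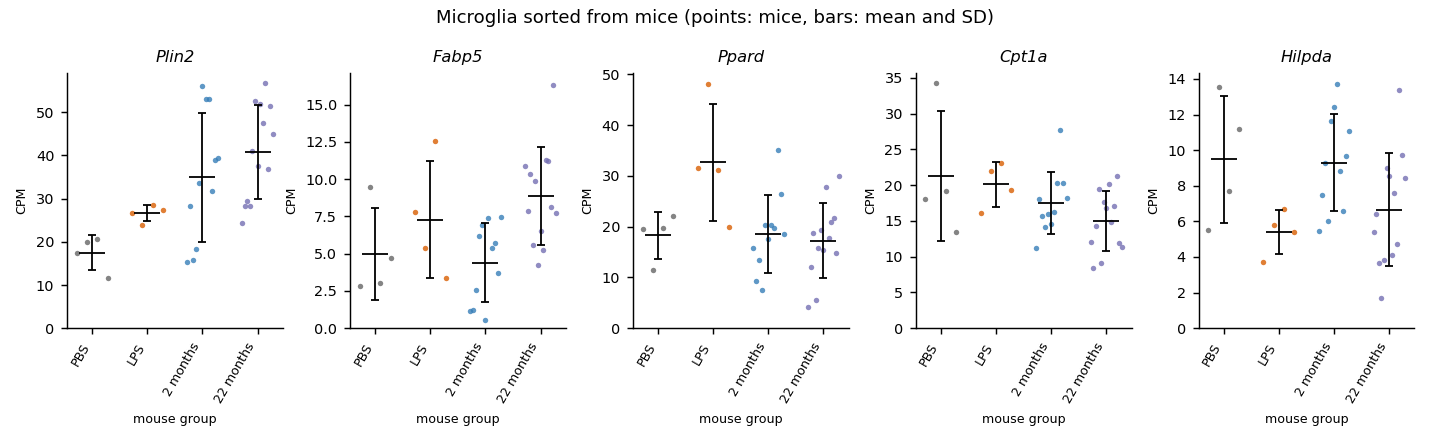
CPM of Plin2, Fabp5, Ppard, Cpt1a and Hilpda in microglia of single mice injected with PBS or LPS and of mice aged 2 and 22 months, with mean ± SD and axes from 0. All 4 LPS mice lie above the 4 PBS mice for Plin2, and 9 of 13 old mice lie above the young ones for Fabp5.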

How the data were processed

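The 10 genes, the pathway and marker lists and the tests were chosen with earlier results of these data known. RNA of cultures and mice was reverse transcribed with barcoded primers, pooled, amplified and sequenced from the transcripts' ends. Salmon 0.7.1 and Ensembl transcripts served to quantify reads, and the authors deposited CPM summed per gene, which their paper names TPM; the labels give the build mm8. CPM are relative, so a large rise in some genes lowers others.

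Columns were assigned by library number (0 were left unmapped), and groups, doses and times came from the labels. Values were transformed to log2(CPM + 1). Genes above 5 CPM in at least 4 samples (11 for aging mice) were tested with limma 3.58.1 in R 4.3.3, with moderated variances and Benjamini-Hochberg adjustment, after the script was tested on simulated data. One fit held 374 cultures of 24 h, without the combinations with LPS. Another held 302 cultures of 72 h, without the 1 culture whose condition name and dose disagree. A joint fit of these cultures gave the difference between times. Depth was read from the step between low values; 1 CPM is about 1 read in the shallowest cultures. The text names all 10 genes and their 3 most alike genes (of those with at least 5 CPM in a condition). Per pathway list and comparison, at most 3 called genes in each direction with the largest differences were selected. The text names some of these and leaves out others. Promoters came from RefSeq (GRCm38.p6). Alternatives were a pseudocount of 0.1, no filter, plate, library pool or library batch in the model, a fold limit, a rank-sum test and leaving out samples. Untreated cultures of the same plates, and leaving out 4 cultures of plate 9, were added after the data were seen.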

Additional observations from a re-analysis of the deposited data

Results flagged for a closer look

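Each gene was tested in groups of 4 to 10 samples for a single value far from the rest. Of 145 such combinations of gene and group, 19 held one, where chance alone gives about 1 in 20. Some cultures held several of these values, so the combinations are not independent. Of these 19 values, 14 came from plate 9, and the cause was not tested.

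Under fatty acids and HDL, Plin2 in OA culture 6 at 72 h was low at 3661 CPM (next value 4677), and Angptl4 in OA culture 7 was low at 6.59 CPM (next 20.1). LiA culture 5 at 72 h, with 7833000 reads, had 0 CPM of Fabp4, 0.128 of Pparg and 130 of Fabp5 (next values 9.18, 8.94 and 315). Fabp4 was also low in OA culture 4 at 72 h (4.68 CPM) and PA culture 6 at 24 h (5.47 CPM). Cd36 was high in PA culture 1 at 24 h (1148 CPM), and Pparg low in HDL culture 1 at 24 h (0.927 CPM).

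Under cytokines, IL13 culture 4 at 72 h had a high Plin2 (2294 CPM) beside a low Fabp4 (0.253 CPM) and Fabp5 (53.1 CPM), and IL13 culture 6 a low Hilpda (1.53 CPM). LPS_lo + IL4 culture 5, with 1331000 reads, was low in Plin2 (1037 CPM), Hilpda (0.751 CPM) and Pparg (0 CPM), and culture 1 of that group was high in Cd36 (1708 CPM). With LPS_lo + IL13, Cpt1a was high in culture 1 (63.4 CPM) and Ppard low in culture 5 (1.34 CPM).

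The effects that differed between 72 and 24 h by the joint limma test were Cd36 under PA (-1.15, adjusted p = 0.0338) and, under GMCSF, Plin2 (-0.92, 0.00664), Cd36 (-1.18, 0.0361) and Fabp4 (2.27, 0.0394).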

How the results depend on the processing

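No call changed direction under any alternative. Some differences that were not called changed sign with plate in the model. Cpt1a for LiA against PA at 24 h went from -0.109 to 0.051, and Fabp4 for OA against PA at 24 h from -0.257 to 0.115. Of 297 single-gene differences, plate in the model kept the side of the threshold in 280, ended 3 calls and added 14; library pool gave 282, 6 and 9. A pseudocount of 0.1 ended 12 of 307. These included all 5 calls of Angptl4 under fatty acids (1.78 to 2.55) and all 5 calls of a rise of Fabp4 (2.27 to 3.09). The others were Hilpda under PA at 24 h (2.52) and Fabp5 in aging mice (1.28). No filter ended 3 and added 3, besides 2 calls of Pdk4, which it alone let in. Leaving out 4 cultures of plate 9 changed none of 72, and library batch none of 5.

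The 16 calls of the lipids, IL4, IL13 and GMCSF against untreated cultures at 24 h became 9 with a log2 difference of at least 1 required as well and 8 by rank-sum test with Bonferroni correction; the 17 of these and the mixture at 72 h became 11 with a pseudocount of 0.1 and 5 by rank-sum test, and 16 without any 1 IL4 culture. The 4 differences between times became 7 without a filter and 8 with plate. In LPS mice 2 calls became 0 without a filter, 0 with the fold limit and 0 to 1 without any 1 mouse (Plin2 0.44 to 0.70, Ppard 0.58 to 0.98). In aging mice 1 became 0 with a pseudocount of 0.1, without a filter and by rank-sum test. The 3 calls of cytokines added to LPS_lo stayed between 2 and 4. The cause was not tested. With the group sizes at hand the rank-sum test could not pass for IL4 at 72 h, the pairs of fatty acids, IL4 against IL13, the LPS_lo mixtures or the LPS mice. No paired analysis was possible because replicate numbers do not link the cultures or mice of different groups; culture plate, which does link cultures, was fitted as a term. Depth limits Angptl4, Pdk4 and Fabp4, whose untreated values rest on few reads.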
